A study of Mus musculus with 8 samples.

Results

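The genes described here code for the zinc metalloproteinases of the ADAM, ADAMTS and MMP families and for their tissue inhibitors, the TIMPs. Members were all genes whose single symbol in the platform annotation is Adam, Adamts, Mmp or Timp followed by a number, and 54 of the 12393 genes measured met this rule: 25 Adam, 7 Adamts, 18 Mmp and 4 Timp genes. Another 26 mouse genes with such names are not analysed here. The cells were established mouse lymphoma lines of T cell origin that lack Snf5, a subunit encoded by Smarcb1 and shared by SWI/SNF complexes, which move nucleosomes. Both groups carry this deficiency. Cells with high and with low CD44, a receptor for the matrix polysaccharide hyaluronan, had been purified from the lines, and 4 arrays were run on CD44hi and 4 on CD44low cells, called CD44lo below. The sources used here name no treatment, time or age, and do not say how many lines or clones lie behind the 4 replicates, so p-values measure the spread between arrays, which may be technical.

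ADAMs are membrane proteins, and their active members cut the outer part off other surface proteins (shedding), among them cytokines, Notch and L-selectin. ADAMTS proteases are secreted, carry thrombospondin repeats and cut matrix proteoglycans, procollagens or von Willebrand factor. MMPs cut collagens and many other matrix and cell surface proteins and are made as inactive precursors, and TIMPs block the zinc site of MMPs and of some ADAM and ADAMTS enzymes. In T cells, ADAM10 and ADAM17 are the sheddases best known for trimming surface receptors, and MMPs are studied for their part in migration through tissue.

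The promoters of 3 members are shown because the results turn on these genes: Adamts1 differed between the subpopulations, Mmp10 had the next smallest p, and Adam8 differed between pairs of replicates. Each stretch is the 250 bases before the annotated start of the gene, from RefSeq (GRCm38.p6), and capitals mark matches to the motifs searched.
Adamts1 (chr16:85803114-85803363, minus strand): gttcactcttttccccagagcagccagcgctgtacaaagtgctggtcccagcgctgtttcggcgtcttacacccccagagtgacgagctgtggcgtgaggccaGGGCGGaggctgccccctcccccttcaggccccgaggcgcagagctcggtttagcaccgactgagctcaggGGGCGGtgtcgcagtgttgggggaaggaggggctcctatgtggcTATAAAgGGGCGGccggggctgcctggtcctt
Mmp10 (chr9:7502092-7502341, plus strand): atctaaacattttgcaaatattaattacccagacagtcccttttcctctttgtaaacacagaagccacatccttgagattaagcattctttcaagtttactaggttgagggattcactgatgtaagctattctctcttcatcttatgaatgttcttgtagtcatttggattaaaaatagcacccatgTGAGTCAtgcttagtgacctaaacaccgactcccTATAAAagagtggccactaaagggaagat
Adam8 (chr7:139992563-139992812, minus strand): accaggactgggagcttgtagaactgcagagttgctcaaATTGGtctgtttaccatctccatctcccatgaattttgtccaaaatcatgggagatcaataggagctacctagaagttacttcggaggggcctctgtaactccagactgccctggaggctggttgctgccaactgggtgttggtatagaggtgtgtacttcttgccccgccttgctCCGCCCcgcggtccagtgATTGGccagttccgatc
Motifs were searched on both strands: the TATA box as TATAAA, the GC box as GGGCGG, the CCAAT box as CCAAT, the AP-1 motif as TGANTCA, the STAT motif as TTCNNNGAA, the E-box as CACGTG and the RUNX motif as TGTGGT. Counted from the start, with -1 as the last base shown, the Adamts1 stretch held TATAAA at -32 to -27 and GGGCGG at -147 to -142, -76 to -71 and -25 to -20, none of which overlap. Of 32851 RefSeq promoters of this length, 12.4% held TATAAA and 32.7% GGGCGG. The Mmp10 stretch held TATAAA at -29 to -24 and the AP-1 letters at -63 to -57. AP-1 letters stood in 6.75% of all promoters and in those of 10 of the 30 members with a promoter entry: Mmp1a, Mmp1b, Mmp3, Mmp7, Mmp10, Mmp12, Mmp13, Mmp20, Adam19 and Adam25. Shares of all promoters count entries, while a member counts once as a gene if any of its entries matched, so the 2 measures are unlike. The Adam8 stretch held the complement of GGGCGG at -35 to -30 and of CCAAT at -211 to -207 and -17 to -13; 33.8% of all promoters held CCAAT. The STAT, E-box and RUNX letters, in 7.02%, 6.02% and 14.0% of all promoters and those of 2, 3 and 9 of the 30 members, were not in these 3 stretches. A match describes letters and is not a shown binding site.

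Array medians lay between 320.3 and 339.1 on the linear intensity scale, and all levels below are log2 of the deposited intensity. The sorted marker followed the labels, with Cd44 at 11.20 to 11.73 on CD44hi arrays and 4.92 to 5.94 on CD44lo arrays. Among T cell markers the probe sets for Cd3e (13.06 in CD44hi, 13.10 in CD44lo) and Cd8a (13.86, 13.87) were bright, while those for Thy1 (4.47, 4.55) and Cd5 (4.32, 4.29) were not above the arrays' floor described next. Of the 9 measured, 0 passed by limma, and 1, Zap70, had an unadjusted p under 0.05. In both groups arrays numbered 1 and 3 lay closer to each other than to those numbered 2 and 4, and the labels name no reason. Results are therefore also given within these 2 sets of replicate numbers. With the set as a block in the fit Zap70 passed as lower in CD44hi, with a log2 difference of -0.45 (limma adjusted p = 0.0458, or 0.183 without the block). Control probe sets for Bacillus genes, whose transcripts mouse RNA lacks, had means of 3.63 to 5.70 and serve here as the floor of the arrays. In 34 of 54 members the mean over all 8 arrays lay at or below the highest of these control means: 17 Adam, 3 Adamts, 12 Mmp and 2 Timp genes. For these members, low expression and none cannot be told apart. Probe sets differ in affinity, so levels of different genes are not ranked against each other. In bulk RNA a change per cell and a change in the share of expressing cells cannot be told apart either.

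**Figure D1:**
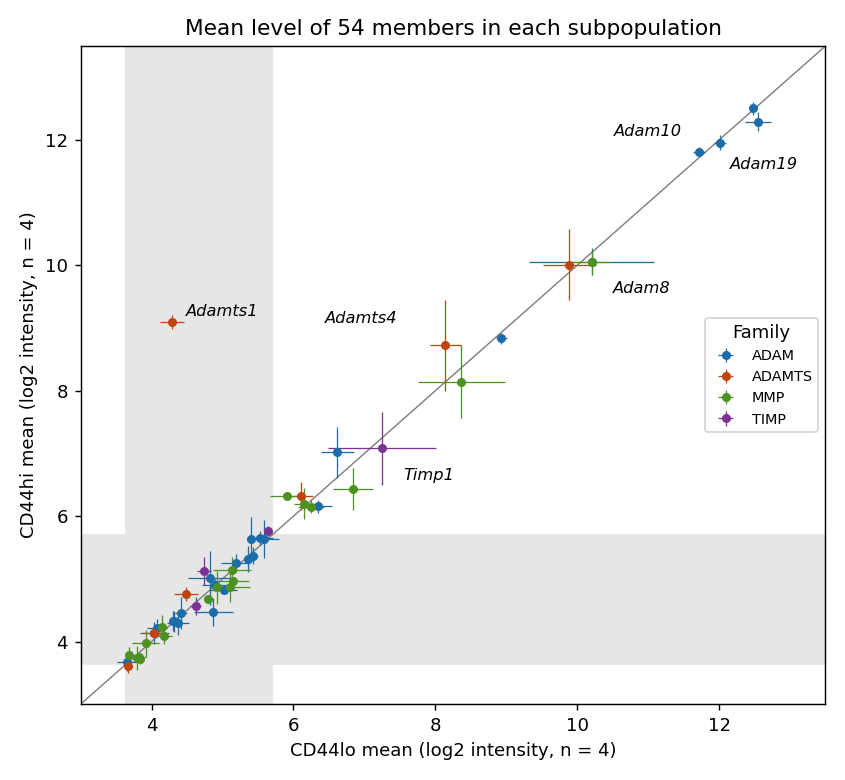
Mean log2 intensity of the 54 members in CD44hi (vertical) against CD44lo (horizontal); each point is 1 gene, bars are the SD of 4 arrays, grey bands span the means of Bacillus control probe sets (3.63 to 5.70) and the line marks equality. Adamts1 stands off the line at 9.10 against 4.28, and 34 genes have an overall mean at or below the upper edge of the band.

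One member rose in CD44hi and 0 fell. Adamts1, a secreted protease that cuts the proteoglycans aggrecan and versican, was the gene that passed. Over all genes 3.81% passed in either direction (limma, Benjamini-Hochberg adjusted p under 0.05), 2.03% as higher and 1.78% as lower, so 1 of 54 members (1.85%) is no larger a share. With the replicate number as a block 6.19% of all genes and 1 member passed, and with the array set as a block 8.60% and 1 member. Without adjustment, p was under 0.05 for 4 higher members (Adamts1, Mmp10, Timp3 and Adamts5) and 1 lower member (Adam3), 9.26% of the members by limma. The share of all genes at this unadjusted threshold was not counted, so this and the unadjusted counts given elsewhere have no baseline here. The median difference over the members was 0.01, against -5.9e-05 over all genes, and 29 members were higher and 25 lower in sign. The median size of a difference, sign ignored, was 0.11 for members and 0.10 for all genes. For 50 of the 53 members that did not pass, the 95% interval of the difference lay within 2-fold either way, and for 40 of them within 1.5-fold. The wider 3 were Adamts4, Mmp23 and Timp1. Values of the 2 groups did not overlap in 5 members (9.26%, against 10.3% of all genes): Adamts1, Mmp10 and Timp3 were higher in CD44hi, and Adam26a and Mmp14 lower.

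**Figure D2:**
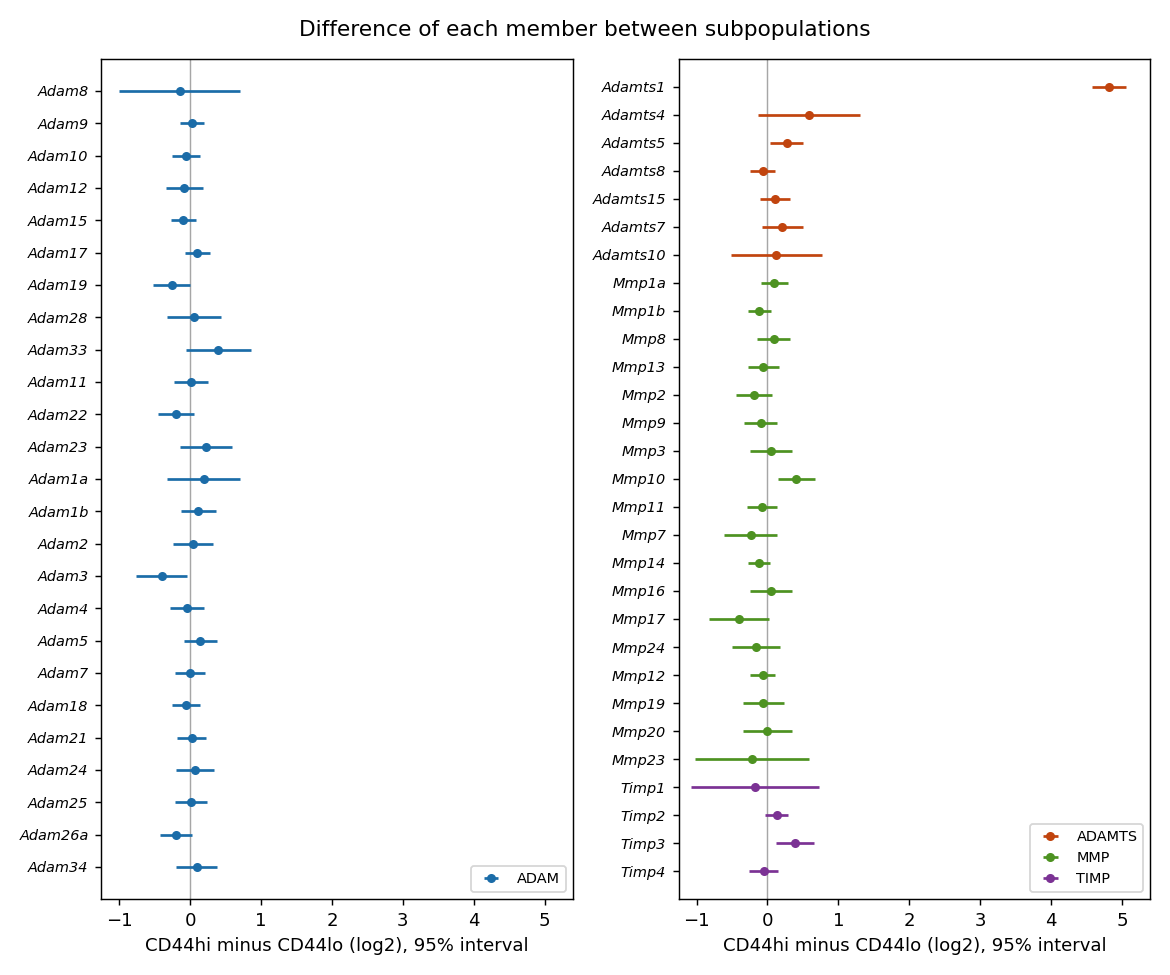
Difference in log2 intensity, CD44hi minus CD44lo, for each of the 54 members with its 95% interval from limma (4 arrays a group). Adamts1 lies at 4.81, and the other 53 members lie between -0.40 and 0.58.

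Among the ADAMTS proteases, Adamts1 was at 9.001, 9.16, 8.99 and 9.23 on CD44hi arrays 1 to 4 and at 4.41, 4.27, 4.05 and 4.41 on CD44lo arrays 1 to 4. Every CD44hi array was high, every CD44lo array was near the floor, and no value lay between. The means were 9.10 ± 0.12 and 4.28 ± 0.17 (SD, n = 4 each), a log2 difference of 4.81 (SE 0.10, 95% interval 4.58 to 5.05, limma adjusted p = 4.04e-08), or 28.1-fold. The exact two-sided permutation p was 0.0286 (n = 4 each), the smallest that 70 assignments allow. By size of difference it was number 5 of 12393 genes and by p number 2. The difference was 4.59, 4.89, 4.95 and 4.83 between arrays of the same number, 4.77 between arrays 1 and 3 and 4.86 between arrays 2 and 4. It was as large in each set, with an interaction of 0.09 (SE 0.18, limma adjusted p = 0.890). Since the CD44lo level lies within the range of the Bacillus controls, the fold depends on where the floor is set. With 32 added to each intensity before the log the difference was 3.49. The gene has 1 probe set, so no other probe set checks it.

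Some measures of the samples moved with the groups as Adamts1 did, and their part in its difference was not tested. RNA quality was read from control probes at both ends of a transcript: the 3' minus 5' log2 difference of Gapdh was 0.816 ± 0.052 on CD44hi arrays against 0.696 ± 0.036 on CD44lo arrays (SD; exact two-sided permutation p = 0.0286, n = 4 each). For Actb it was 0.626 ± 0.152 against 0.498 ± 0.105 (exact permutation p = 0.229). Of 9 fibroblast and stromal markers, cells in which Adamts1 is known to be active, Pdgfra alone passed by limma, higher in CD44hi by 2.97. Postn had means of 8.17 (CD44hi) against 10.57 (CD44lo; limma adjusted p = 0.0667, or 0.0017 with the replicate block). Means of the defining genes Col1a1, Col1a2, Col3a1, Dcn and Lum lay between 3.83 and 5.67 in both groups, within the range of the Bacillus controls. The other 2 lay above it, Pdgfrb at 6.63 and 6.64 and Fap at 7.23 and 7.83 in CD44hi and CD44lo, with Fap differing by -0.60 (limma adjusted p = 0.743), made up of 0.16 between arrays 1 and 3 and -1.36 between arrays 2 and 4. The summed intensity of this list was 1160 to 1860 in CD44hi and 1444 to 3163 in CD44lo. Of 5 epithelial markers Krt18 alone passed, higher by 1.146, with Epcam at 11.42 and 11.37, and the list summed to 2060 to 4553 and 2537 to 3670. The Epcam difference of 0.05 was made up of 0.79 between arrays 1 and 3 and -0.68 between arrays 2 and 4. The B cell marker Ms4a1 had means of 4.99 against 3.68 with no overlap (difference 1.31, limma adjusted p = 0.0961, or 0.0204 with the array set as a block), while the other 5 had differences of -0.18 to 0.21. Of 11 myeloid, 6 endothelial and 6 B cell markers 0 passed by limma without a block (1 in each list, Mpo, Tie1 and Ms4a1, had an unadjusted p under 0.05), with sums of 330.6 to 348.6, 142.5 to 157.2 and 184.5 to 212.5 in CD44hi and of 316.1 to 338.9, 146.0 to 162.3 and 174.8 to 183.7 in CD44lo. Tie1, at 4.54 and 4.80 within the range of the Bacillus controls, differed by -0.26 (limma adjusted p = 0.120, or 0.0464 with the array set as a block).

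Adamts5, the other main aggrecan-cutting enzyme and the next protein-coding gene to Adamts1 on chromosome 16 in the RefSeq table, stayed near the floor on every array. It was at 4.69, 4.86, 4.84 and 4.63 in CD44hi, against 4.46, 4.51, 4.69 and 4.29 in CD44lo, groups that overlapped. The difference was 0.27 (SE 0.10, 95% interval 0.04 to 0.50, limma adjusted p = 0.282), and 0.07 with its other probe set. The upper end of that interval is far below the lower end for Adamts1, 4.58. Adamts8, another proteoglycan-cutting member, had means of 3.60 against 3.67 and Adamts15 of 4.14 against 4.03, within the range of the Bacillus controls. Adamts7, which cuts cartilage oligomeric matrix protein, was at 6.32 and 6.11. Adamts10, a protease tied to fibrillin microfibrils, was at 9.36, 10.34, 9.74 and 10.60 in CD44hi, against 9.51, 10.19, 9.63 and 10.22 in CD44lo. Its high arrays were numbers 2 and 4 of both groups, and the group difference was 0.12 (SE 0.28, limma adjusted p = 0.939).

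Adamts4, an aggrecanase like Adamts5, behaved differently in the 2 sets of arrays. Its levels were 8.08, 9.35, 8.11 and 9.35 on CD44hi arrays 1 to 4 and 8.04, 8.46, 7.96 and 8.11 on CD44lo arrays 1 to 4. CD44hi arrays 2 and 4 stood above all others, while the remaining 6 lay between 7.96 and 8.46. CD44hi exceeded CD44lo at each of the 4 numbers, by 0.09 on average between arrays 1 and 3 and by 1.07 between arrays 2 and 4. Over all arrays the difference was 0.58 (SE 0.32, 95% interval -0.14 to 1.30) and did not pass (limma adjusted p = 0.546). Arrays 2 and 4 alone, 2 per group, gave an adjusted p of 0.0176 by limma. The sets were recognised from these same arrays, so this p and that of the interaction are not independent tests. The interaction of group and set passed at 0.98 (SE 0.17, limma adjusted p = 0.0457), as 1.52% of all genes did. That call was lost without any 1 of the 8 arrays (adjusted p 0.0564 to 0.197) and with all probe sets tested (0.0602). The second Adamts4 probe set gave an interaction of 0.43 (limma adjusted p = 0.699), with CD44hi array 4 at 7.56 and the rest at 6.07 to 6.63.

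Of 25 Adam genes 0 passed by limma, and 1, Adam3, had an unadjusted p under 0.05. The sheddases Adam9, Adam10, Adam17 and Adam19 lay far above the floor on every array and differed little between CD44hi and CD44lo. Adam10, which starts the cleavage of Notch after ligand binding, was at 12.03, 12.04, 11.98 and 11.78 in CD44hi, against 12.06, 11.88, 12.08 and 12.02 in CD44lo (difference -0.06, SE 0.09, 95% interval -0.25 to 0.14). Adam17, the enzyme that releases tumour necrosis factor and L-selectin, was at 11.83, 11.84, 11.88 and 11.71 against 11.76, 11.77, 11.74 and 11.59 (difference 0.10, SE 0.08, interval -0.07 to 0.27). The groups overlapped for both, and the other probe sets of these genes gave differences of 0.03 and -0.10 for Adam10 and of -0.05 and 0.08 for Adam17. Adam9 was at 12.51 ± 0.10 and 12.48 ± 0.06 (SD, n = 4 each). Adam15, at 8.83 and 8.93, did not pass either.

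Adam19, a sheddase of neuregulins, was at 12.10, 12.46, 12.27 and 12.34 in CD44hi, against 12.35, 12.69, 12.44 and 12.72 in CD44lo. It was lower in CD44hi at each of the 4 numbers, arrays 2 and 4 were the higher ones on both sides, and the groups overlapped. The difference was -0.26 (SE 0.11, limma adjusted p = 0.402), or adjusted p = 0.0934 when the number was a block, and -0.28 with its second probe set. Adam33, a family member known from airway mesenchyme, was at 6.58, 7.04, 6.90 and 7.56 against 6.35, 6.73, 6.53 and 6.87. It was higher in CD44hi at every number with overlapping groups (difference 0.40, SE 0.20, limma adjusted p = 0.490, or 0.0594 with the block). Adam12 and Adam28, at overall means of 4.33 and 5.61, lay at the floor.

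Adam8, a leukocyte sheddase also called CD156, was the Adam gene with the largest difference between the sets of arrays. It was at 9.83, 9.94, 10.20 and 10.27 on CD44hi arrays 1 to 4 and at 9.40, 10.95, 9.49 and 10.98 on CD44lo arrays 1 to 4. The CD44lo values split into a low pair, numbers 1 and 3, and a high pair, numbers 2 and 4, with all CD44hi values in between. CD44hi was thus higher by 0.57 between arrays 1 and 3 and lower by 0.86 (difference -0.86) between arrays 2 and 4. The overall difference of -0.14 (SE 0.38, limma adjusted p = 0.946) averages these opposite values. Limma on arrays 2 and 4 alone, 2 per group, gave an adjusted p of 0.0327. That set was picked from the data, so this p is not an independent test. The interaction was -1.43 (SE 0.21, limma adjusted p = 0.0333). Its call held without CD44hi replicate 2 or 4 (0.0423 and 0.0267) and was lost without CD44hi replicate 1 or 3 (0.0690 and 0.126) or CD44lo replicate 1, 2, 3 or 4 (0.160, 0.141, 0.129 and 0.138). Of 54 members 2 (3.70%, against 1.52% of all genes) passed this test, Adam8 and Adamts4, and the sets were recognised from these arrays, not from the labels.

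The other Adam genes are of the nervous system or of the male reproductive tract. Adam11, Adam22 and Adam23, which lack protease activity and act as adhesion proteins and receptors in nerve cells, had differences of 0.01, -0.20 and 0.23. All 13 members of the reproductive group, which includes the sperm surface proteins Adam2 and Adam3 of fertilisation, had means at or below the highest Bacillus control mean, from 3.66 for Adam25 to 5.59 for Adam1b. Adam3 was at 4.31, 4.61, 4.25 and 4.71 in CD44hi, against 5.12, 4.54, 4.74 and 5.07 in CD44lo, with overlap. Its difference was -0.40 (SE 0.16, limma adjusted p = 0.317), made up of -0.65 between arrays 1 and 3 and -0.15 between arrays 2 and 4.

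Of 18 Mmp genes 0 passed by limma, and 1, Mmp10, had an unadjusted p under 0.05. Differences ran from -0.40 to 0.41, and 12 genes were lower and 6 higher in sign. The stromelysin Mmp10, which also activates other MMP precursors, was at 6.28, 6.38, 6.28 and 6.32 in CD44hi, against 5.97, 5.57, 6.11 and 5.99 in CD44lo. The groups did not overlap, and CD44lo array 2 was the lowest, within the range of the Bacillus controls. The Mmp10 mean over all arrays, 6.11, lay little above the highest control mean, 5.70. The Mmp10 difference was 0.41 (SE 0.12, 95% interval 0.14 to 0.67, limma adjusted p = 0.120), with 0.23 between arrays 1 and 3 and 0.58 between arrays 2 and 4. Mmp3, the other classical stromelysin, was at 6.201 ± 0.24 and 6.15 ± 0.14 (SD, n = 4 each).

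The gelatinases, which cut denatured and basement membrane collagen, lay at or little above the floor. Mmp9 was at 6.30, 6.10, 6.09 and 6.13 in CD44hi, against 6.42, 6.25, 6.31 and 6.003 in CD44lo (difference -0.10, SE 0.10, interval -0.33 to 0.14, and 0.05 with its other probe set). Mmp2 was at 4.96 and 5.15, in the range of the Bacillus controls (difference -0.19, and 0.09 with its other probe set). The 4 collagenases Mmp1a, Mmp1b, Mmp8 and Mmp13 had overall means of 3.73 to 4.19, deep in that range, with differences between -0.12 and 0.10. Mmp7, the small matrilysin, Mmp11, Mmp12, Mmp19 and Mmp20 lay there as well. The Mmp7 difference was -0.23 (SE 0.16, limma adjusted p = 0.689).

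Membrane-type MMPs, which stay anchored on the cell surface, were split between genes at the floor (Mmp14 and Mmp16) and genes above it (Mmp17 and Mmp24). Mmp17, which has a lipid anchor, was at 6.62, 6.43, 6.72 and 5.97 in CD44hi, against 6.83, 6.56, 7.22 and 6.73 in CD44lo. It was lower in CD44hi at each of the 4 numbers, while the groups overlapped (difference -0.40, SE 0.19, limma adjusted p = 0.440, or 0.114 with the block). Mmp24, a membrane-type enzyme best known from nervous tissue, was at 10.16, 9.76, 10.21 and 10.05 against 10.44, 9.91, 10.41 and 10.06 (difference -0.16, SE 0.15, and 0.03 with its other probe set). Mmp14, the main activator of pro-MMP2, had groups that did not overlap at 4.68 ± 0.07 and 4.80 ± 0.05 (SD, n = 4 each), a difference of -0.12 at the floor (limma adjusted p = 0.600). Mmp23, an MMP anchored by its N-terminal part, was at 7.58, 8.39, 7.77 and 8.86 in CD44hi, against 7.81, 8.85, 7.86 and 8.95 in CD44lo. Arrays 2 and 4 were the higher ones in both groups, by 0.95 and 1.06, and the difference between CD44hi and CD44lo was -0.22 (SE 0.35, 95% interval -1.02 to 0.58). Its second probe set gave -0.33.

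Of 4 Timp genes 0 passed by limma, and 1, Timp3, had an unadjusted p under 0.05. Timp1, a broad MMP inhibitor induced in activated cells, was at 6.52, 7.32, 6.68 and 7.80 in CD44hi, against 6.51, 7.94, 6.69 and 7.87 in CD44lo. Its 4 values from numbers 2 and 4 all exceeded the 4 from numbers 1 and 3, and CD44hi overlapped CD44lo. The difference between CD44hi and CD44lo was -0.17 (SE 0.40, 95% interval -1.07 to 0.73, limma adjusted p = 0.940), an interval that takes in a level 2-fold lower. Timp3, which binds to the matrix and inhibits ADAM17, ADAMTS4 and ADAMTS5 as well as MMPs, was at 5.03, 5.17, 5.41 and 4.89 in CD44hi, against 4.83, 4.76, 4.60 and 4.76 in CD44lo. These groups did not overlap, but all values lay within the range of the Bacillus controls. The difference was 0.39 (SE 0.12, limma adjusted p = 0.139), and its other 3 probe sets gave -0.26, 0.19 and 0.03. Timp2 was at 5.76 ± 0.09 and 5.63 ± 0.05 (SD, n = 4 each), with differences of -0.13 to 0.28 over its 6 probe sets, and Timp4 at 4.57 and 4.62.

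**Figure D3:**
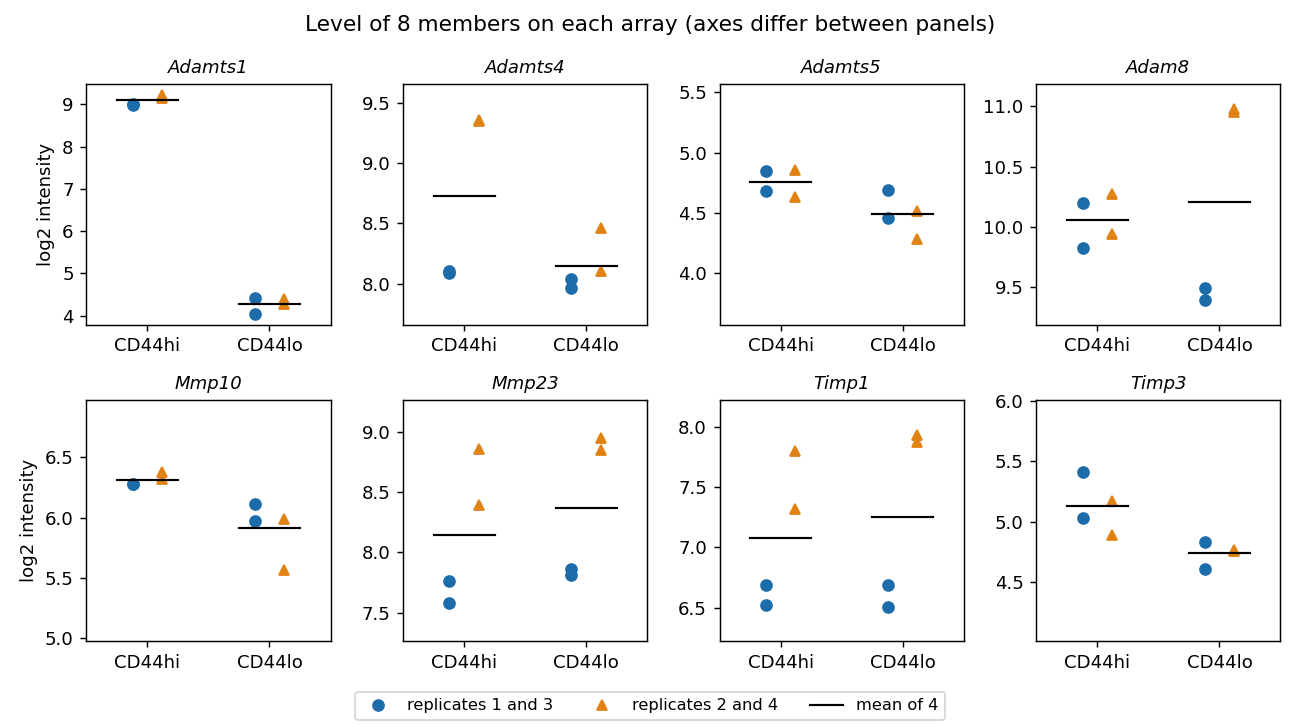
Log2 intensity of 8 members on each of the 8 arrays, with circles for replicates 1 and 3, triangles for replicates 2 and 4 and a line at the mean of 4; vertical axes differ between panels. Adamts1 separates CD44hi from CD44lo, Timp1 and Mmp23 separate triangles from circles in both groups, and the Adam8 triangles of CD44lo, at 10.95 and 10.98, lie above its circles, at 9.40 and 9.49.

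Over the members, numbers 2 and 4 did not overlap numbers 1 and 3 in 7 genes (12.96%), against 25.4% of all genes. Timp1, Mmp23, Adamts10, Adamts4 and Mmp19 were higher on arrays 2 and 4, and Mmp24 and Adam11 lower. The step from numbers 1 and 3 to numbers 2 and 4 was 0.96 in CD44hi and 1.31 in CD44lo for Timp1, and 0.92 and 0.63 for Adamts10. For Mmp24 it was -0.28 and -0.44. These are descriptions with no test, since the sets were found in the arrays.

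**Figure D4:**
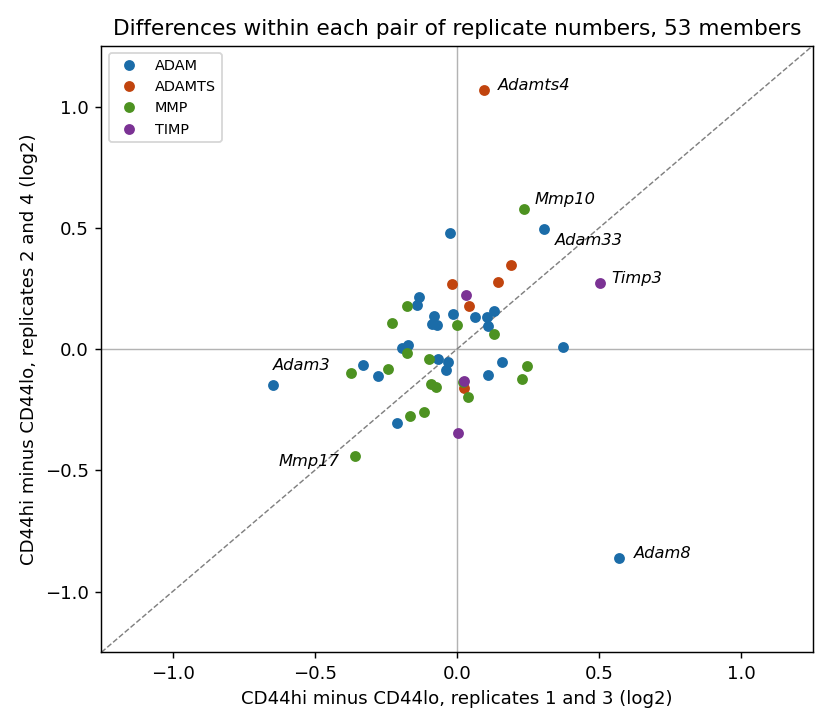
Difference CD44hi minus CD44lo in log2 intensity between replicates 1 and 3 (horizontal) and between replicates 2 and 4 (vertical) for the 53 members other than Adamts1; each point is 1 gene and the dashed line marks equal differences. Adam8 lies at 0.57 and -0.86 and Adamts4 at 0.09 and 1.07.

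Genes that act with these proteases were described through 7 lists, of which 84 of 97 genes were measured. By limma 0 of the 84 passed, 8 had an unadjusted p under 0.05, and 5 passed in the fit blocked on replicate number (5.95%, against 6.19% of all genes). Of 8 partners of ADAM10 and ADAM17 (median difference -0.16) 4 passed with the block. Rhbdf1, an iRhom that carries ADAM17 to the surface, had means of 6.64 ± 0.34 against 5.98 ± 0.15 (SD, n = 4 each; difference 0.66, limma adjusted p = 0.0669, or 0.0162 with the block). Frmd8, which stabilises the iRhom and ADAM17 complex, had a difference of -0.35 (limma adjusted p = 0.0523, or 0.0253 with the block). Tspan5 and Tspan17, tetraspanins that escort ADAM10, had differences of -0.69 (0.279, or 0.0042) and -0.48 (0.0667, or 0.0400). Each of these differences had the same sign in both sets of arrays. In arrays 1 and 3 and then 2 and 4 they were 0.55 and 0.78 for Rhbdf1 and -0.36 and -0.34 for Frmd8. Tspan5 had -0.64 and -0.73, and Tspan17 had -0.61 and -0.35.

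Among 5 inhibitors other than TIMPs (median -0.04), Papln, a matrix protein with protease inhibitor domains, had a difference of 0.69 (limma adjusted p = 0.534, or 0.0194 with the block). Reck, a membrane-anchored inhibitor of MMPs, was at 7.36 and 7.47. Of 6 proprotein convertases, which cut the prodomain off many of these enzymes, 0 passed by limma and 0 had an unadjusted p under 0.05 (median 0.04). Furin had a difference of -0.18, made up of 0.11 between arrays 1 and 3 and -0.48 between arrays 2 and 4. Pcsk6 had one of 0.32, made up of 0.73 and -0.10, and its interaction of group and set passed at -0.83 (limma adjusted p = 0.0326), while that of Furin was -0.59 (0.0795). The sets were recognised from these same arrays, so the interaction is not an independent test. Of 7 genes of the plasminogen system and inducers of MMPs 0 passed (1 unadjusted; median 0.03), with 0.30 for Serpinf2 and -0.11 for Plg. Related metalloproteinases and ADAMTS-like proteins (9 measured; 0 unadjusted; median 0.03) had at most 0.15, for Adamtsl4, and Adamtsl5 had 0.11.

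Of 32 shed surface proteins 0 passed by limma (3 unadjusted; median 0.07). Havcr2 had a difference of -0.07, made up of 0.57 between arrays 1 and 3 and -0.70 between arrays 2 and 4. Its interaction of group and set passed at -1.27 (limma adjusted p = 0.0047), as 1.52% of all genes did, on sets recognised from these same arrays. Il6ra, the interleukin-6 receptor that ADAM10 and ADAM17 release, was at 10.33 ± 0.33 and 9.85 ± 0.17 (SD, n = 4 each; difference 0.48, limma adjusted p = 0.214). The Notch ligand Dll1 had a difference of -0.44 (limma adjusted p = 0.167). Of 17 matrix substrates of ADAMTS enzymes and MMPs 0 passed and 0 had an unadjusted p under 0.05 (median 0.07). Fn1, which codes for fibronectin, had a difference of 0.24 and Efemp1 of -0.34.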

How the data were processed

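RNA of 8 samples was hybridised to Affymetrix Mouse 430A 2.0 arrays. The authors ran RMA on the scans (background correction, normalization between arrays, summary of probes), per the labels' protocols, and deposited 1 intensity per probe set and array; its version is not given in the sources used here. Values were linear, so log2 was taken with no pseudocount. RMA narrows differences near background. Their number, 4 arrays a group, limits the precision.

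Of 22690 probe sets 64 are controls and 20380 carry 1 symbol. For each of the 12393 genes the probe set of highest mean was used. All 54 members were found by gene identifier in the RefSeq table (GRCm38.p6), with 0 symbols changed; 19 have several probe sets, 83 in all, of which 1 passed. CD44hi was set against CD44lo in R 4.3.3 with limma 3.58.1 (lmFit, eBayes), without covariates and with Benjamini-Hochberg adjustment over all genes. This fit was tested on simulated data with independent noise and no difference between array sets. That test does not show how the fit behaves on arrays that form sets. Members, lists, motifs and array sets were chosen with earlier results of these data known.

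Replicate numbers are shared between groups. After subtracting group means, arrays with the same number correlated across genes at 0.574, 0.404, 0.533 and 0.531, each over 0.1. Numbers 1 with 3 and 2 with 4 correlated at 0.372 to 0.521, also over 0.1. CD44lo array 2 correlated more with CD44hi array 4 (0.458) than with CD44hi array 2 (0.404). These values thus show the 2 sets of arrays, not that equal numbers are pairs. The labels name no pairs, so the replicate block rests on the shared numbers alone.

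Genes named with values are members that passed any of the fits with or without a block, lie above the median gene, are TIMPs, differ by at least 0.5 within a set of arrays without overlap, or are among the 5 largest differences in either direction. Other members with values were chosen after these were seen, by family role or for a count of 5 or fewer. Alternatives covered scaling, an offset, filters, probe set choice, variance models, array weights, blocks, sets of arrays, left-out arrays and thresholds.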

Additional observations from a re-analysis of the deposited data

Results flagged for a closer look

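The difference between CD44hi and CD44lo changed between the pairs of replicate numbers for Adam8 (interaction -1.43) and Adamts4 (interaction 0.98), by the limma interaction described above. The pairs were recognised from these arrays, not from the labels.

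In 8 of 108 groups of 4 values 1 array lay far from the other 3; chance alone does so in about 1 of 20 groups. For Adam28, CD44hi replicate 4 read 5.17 against 5.75 to 5.81. Adam23 was at 6.17 on the same array and at 5.42 to 5.50 on the others. For Adam1b, CD44lo replicate 3 was at 5.81 against 5.41 to 5.45. For Adam2, CD44lo replicate 2 was at 4.54 against 4.36 to 4.38. For Adam26a, CD44lo replicate 1 was at 5.30 against 4.90 to 4.94. On CD44hi replicate 3, Adam34 was at 4.40 against 4.03 to 4.08 and Mmp11 at 4.28 against 4.01 to 4.04. For Mmp13, CD44hi replicate 2 was at 3.46 against 3.81 to 3.86. All 8 genes have means at or below the highest Bacillus control mean.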

How the results depend on the processing

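Adamts1 kept its direction and its call in each of 23 alternatives that test it, with differences of 3.49 to 4.86 and limma adjusted p up to 0.000391. Against 1 higher and 0 lower members, there were 0 higher among genes with a mean above the median gene, a filter that drops Adamts1, and the median difference there was -0.055. Array weights gave 2 higher (also Timp3, limma adjusted p = 0.0309) and 1 lower (Adam3, 0.0476), and replicate numbers 2 and 4 alone gave 2 higher (also Adamts4) and 1 lower (Adam8). The share of all genes passing under these alternatives was not counted, so these counts of members have no baseline here. Leaving out any 1 array kept 1 higher and 0 lower. With the replicate block the count of members stayed at 1 higher and 0 lower, partners of ADAM10 and ADAM17 went from 0 and 0 to 1 higher and 3 lower, and inhibitors other than TIMPs from 0 to 1 higher; among fibroblast and stromal markers Postn passed as lower with the block; the block changed no other call of a member or list. Members passing the interaction, 2 in all, were 1 with all probe sets tested and 0 to 1 with an array left out, alternatives chosen after seeing the data. Of 462 values of 20 named members in the alternatives, 458 stayed on the same side of the threshold, 4 gained a call and 0 lost one; 19 values of uncalled members changed sign. Members near the Bacillus controls limit what these arrays can show.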
